A study of Saccharomyces cerevisiae with 7 samples.

Results

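This account covers 6 zinc-responsive genes of budding yeast across 7 libraries of ribosome-bound RNA. They were chosen by name, all 6 were among the 6341 features counted, and all 6 passed the filter on low counts. They are the zinc transporter genes ZRT1, ZRT2 and ZRT3, the regulator gene ZAP1, and the Zap1 target genes ZPS1 and ADH4. They were picked with earlier results of these libraries known, the difference between the depletion strain and Rps3_TAP among them, so their values in the comparisons with Rps3_TAP are a description and were not tested.

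Minus_Rps26 is 3 libraries from tagged ribosomes that lack Rps26, a protein of the small subunit, taken up on IgG beads and released with TEV protease. Plus_Rps26 is 3 libraries from the untagged, Rps26-containing ribosomes that the beads left behind, collected from a sucrose gradient. Both come from a BY4741 (S288C) strain with the galactose-induced, glucose-repressed GAL1 promoter before RPS3 and before RPS26A (HisMX6::pGAL1-Rps3, NatMX6::pGAL1-Rps26A), RPS26B replaced by KanMX6, and the plasmid pCM189 carrying Rps3-TAP. Cells in mid-log phase in YPGal, a galactose medium containing doxycycline at 0.2 µg/ml, were washed and kept for 4 h in YPD, a glucose medium. Rps3_TAP is 1 library of bead-bound ribosomes from BY4741 cells with Rps3-TAP::HisMX6, without those promoter changes or the deletion, grown to mid-log phase in YPD. All cultures received 100 µg/ml cycloheximide, which holds ribosomes on mRNA. The depletion strain differs from Rps3_TAP in genotype, plasmid and the shift of medium, and its 2 ribosome classes differ in purification as well as in Rps26, so these differences cannot be told apart.

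Yeast takes up zinc through Zrt1, the high-affinity transporter of the plasma membrane, and Zrt2, the low-affinity one, and Zrt3 releases zinc stored in the vacuole. Zap1 is a zinc-sensing transcription factor that activates ZRT1, ZRT3 and its own gene when zinc is scarce, and ZRT2 is a Zap1 target too. ZPS1 encodes a cell surface protein and ADH4 an alcohol dehydrogenase, and both are Zap1 targets. Zap1 also represses ADH1 and ADH3, which encode abundant zinc-binding alcohol dehydrogenases.

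The study compares ribosomes by the bases before start codons, so the 20 bases before each of the 6 start codons are shown 5′ to 3′ from the authors' deposited column, with -4 to -1 in capitals.
ZRT1: caaatatcaaaaaaggAATT
ZRT2: gacactgcatattcgaAAGT
ZRT3: cagtgaagaaacgcaaGAAA
ZAP1: tagaagaaggataggaACTA
ZPS1: acacacaactactaaaCATT
ADH4: ctaatagtcaaataagAAAA
The last base was taken as -1. All but ZAP1, 5 of the 6 genes, have A at -3, as 60.8% of 5684 nuclear protein-coding genes do. ZAP1 has C there, found in 8.74% of these genes. ZRT3 has G at -4 (14.9% of genes) and ZPS1 has C, while ZRT1, ZRT2, ZAP1 and ADH4 have A (43.6%). ZRT1 and ADH4 hold 12 A among their 20 bases, against a median of 8 over all these genes, and ZRT2 holds 7.

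Counts over features came to 9605899 to 21405499 per library. In the strain check, RPS26A had 545 to 1075 counts in the 6 libraries of the depletion strain, against 100566 in Rps3_TAP, and RPS26B had 10 to 142, against 14293. The 6 zinc-responsive genes took 0.0379% to 0.0973% of counts in the depletion strain, against 0.0185% in Rps3_TAP. Levels are given as CPM, a gene's counts relative to its library's total after scaling by edgeR's trimmed-mean factors over 7 libraries. In such bulk libraries a smaller share of cells with a message and less RNA per cell cannot be told apart, and the labels name biological replicates without saying from which cultures.

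ZRT1 (YGL255W, R64 assembly of sacCer3, chromosome VII, 20978 to 22108) was about 8 to 9 times as high on both ribosome classes of the depletion strain as in Rps3_TAP. Replicates 1, 2 and 3 of Minus_Rps26 held 210.4, 169 and 295 CPM and those of Plus_Rps26 held 208, 166 and 407 CPM, against 28.4 CPM in Rps3_TAP (282 counts; 95% Wilson interval 25.3 to 32.0 CPM, which covers counting error only). Rps3_TAP lay below all 6 other libraries, the lowest of which, Plus_Rps26 replicate 2, had 166 CPM. The log2 fold change was 2.98 ± 0.65 (SE; 7.90-fold) for Minus_Rps26 over Rps3_TAP and 3.20 ± 0.65 (SE; 9.17-fold) for Plus_Rps26 over Rps3_TAP. These placed ZRT1 at ranks 143 and 126 of 5815 features. Both comparisons use the same single library, and the SE borrows its spread from the other groups.

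The other 5 genes differed from Rps3_TAP far less. At 2-fold or more, 2 of the 6 genes, ZRT1 and ZAP1, were higher in Minus_Rps26 than in Rps3_TAP, where 25.8% of all features were, and 1 of 6, ZRT1, was higher in Plus_Rps26, where 14.2% were. None of the 6 was 2-fold lower in either (22.2% and 11.6% of features). The median log2 fold change of the 6 was 0.45 in Minus_Rps26 and 0.46 in Plus_Rps26, against 0.18 and 0.07 over all 5815 features. In 4 of the 6 genes (ZRT1, ZAP1, ZPS1 and ADH4) Rps3_TAP lay below all 6 other libraries, as for 25.8% of all features, and in none did it lie above all 6 (25.1%). Of the 6, 1 (ZRT1) was 2-fold or more higher on both classes, as 11.2% of features were. With scaling to total counts only, the median over all features moved to 1.39 and 0.55, and ZRT1 stood 2.81 and 3.03 above these medians.

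**Figure D1:**
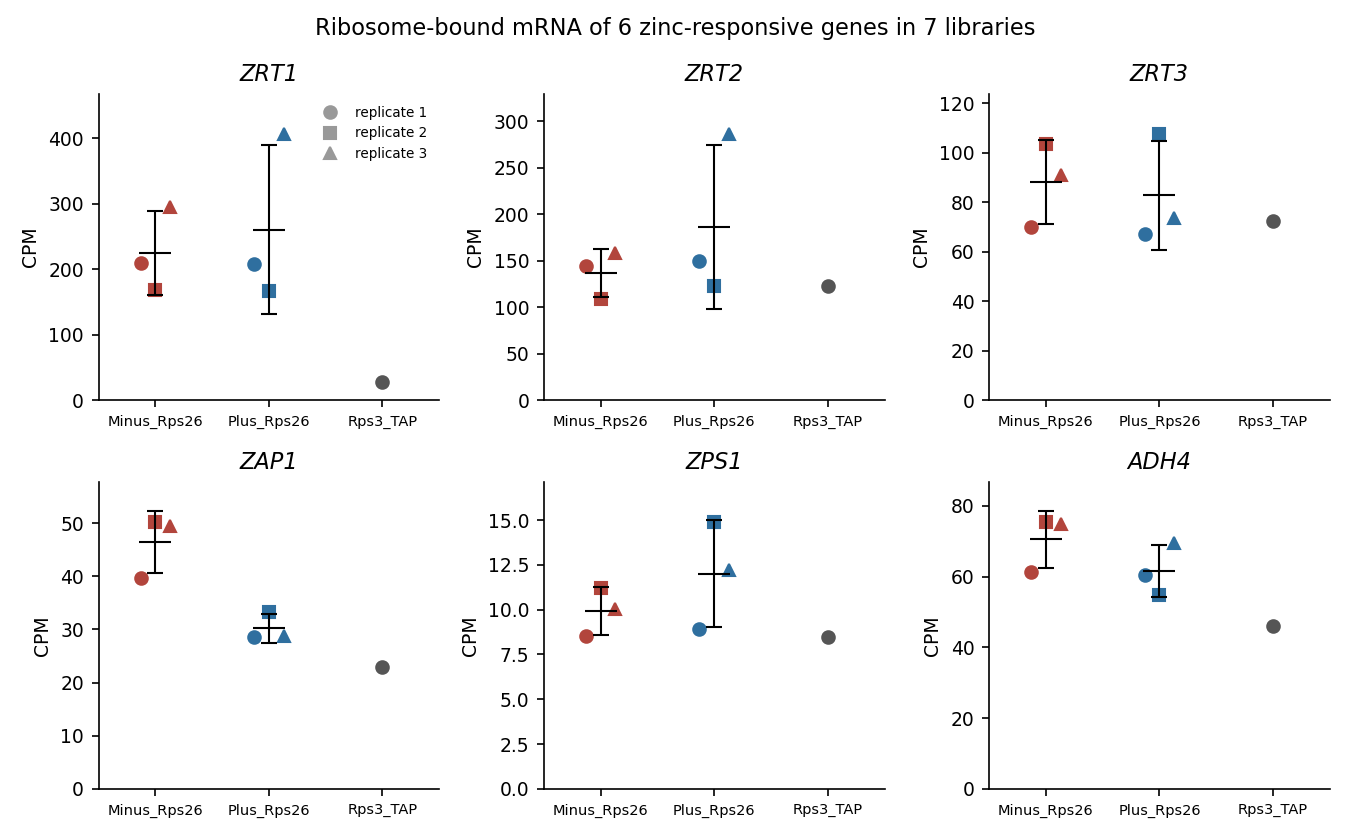
Level in CPM (linear axes from 0) of each of the 6 genes in Minus_Rps26, Plus_Rps26 and Rps3_TAP; each point is a library, its shape is the replicate number, and black bars are the mean ± SD of 3 libraries. ZRT1 stands at 166 to 407 CPM in the depletion strain and 28.4 CPM in Rps3_TAP, while ZRT2 and ZRT3 of Rps3_TAP lie within the range of the other libraries.

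ZRT1 could also be set against its fellow genes inside each library, which needs no scaling between libraries. There were 1.46, 1.56 and 1.86 counts of ZRT1 for each count of ZRT2 in replicates 1, 2 and 3 of Minus_Rps26 and 1.40, 1.36 and 1.42 in those of Plus_Rps26, against 0.232 in Rps3_TAP. The 6 ratios of the depletion strain thus lay within a narrow band and were 5.87 to 8.02 times that of Rps3_TAP. Against ZRT3 the ratio was 1.54 to 5.54 in the depletion strain and 0.392 in Rps3_TAP, and against ADH4, which lies upstream of it, 2.24 to 5.86 and 0.617. Against ZAP1 it was 3.37 to 14.1 and 1.24, and against ZPS1 11.2 to 33.3 and 3.36. In all 5 pairs Rps3_TAP lay below all 6 other libraries, by a factor of at least 2.71. All 5 share the ZRT1 counts of the single Rps3_TAP library. They therefore restate the difference of ZRT1 given above and are not 5 separate results. In the 3 pairs computed without ZRT1, Rps3_TAP lay within the range of the other libraries. The ratio of ZRT2 to ZRT3 was 1.05 to 3.90 in the depletion strain and 1.69 in Rps3_TAP, that of ZAP1 to ZRT3 0.309 to 0.566 and 0.316, and that of ADH4 to ZRT3 0.509 to 0.946 and 0.636.

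**Figure D2:**
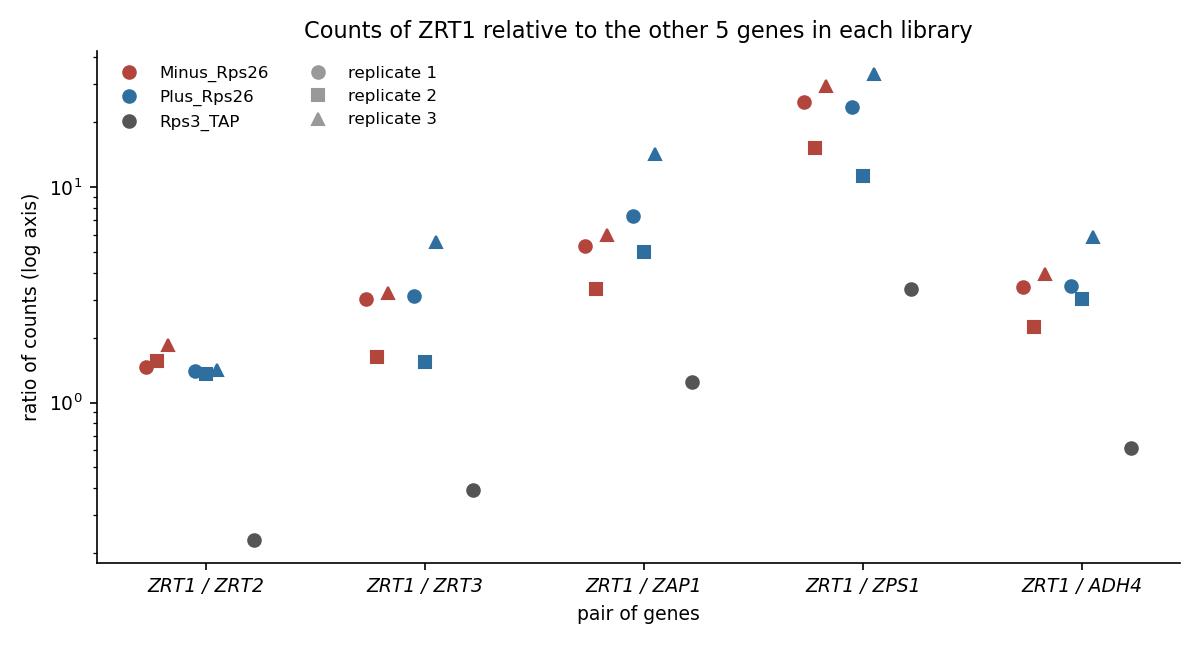
Counts of ZRT1 divided by counts of each of the other 5 genes in the same library (log axis), by group; the shape is the replicate number. For each pair the Rps3_TAP point lies below all 6 points of the depletion strain, as with ZRT2 at 0.232 against 1.36 to 1.86.

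ZRT2 (YLR130C, chromosome XII, 402794 to 404062), the gene of the low-affinity transporter, did not follow ZRT1 in Rps3_TAP. The 3 libraries of Minus_Rps26 held 144, 109 and 159 CPM and those of Plus_Rps26 149, 123 and 287 CPM, against 122.8 CPM in Rps3_TAP, which lay within their range. The log2 fold changes over Rps3_TAP were 0.16 ± 0.50 in Minus_Rps26 and 0.60 ± 0.52 in Plus_Rps26 (SE). Without Plus_Rps26 replicate 3 the value for Plus_Rps26 was 0.15. Within the depletion strain, ZRT1 and ZRT2 had the same order of libraries in each class, lowest in replicate 2 and highest in replicate 3. Over these 6 libraries the log2 CPM of ZRT1 and ZRT2 correlated at r = 0.94, and over all 7 at 0.59, as a description of libraries that share a strain and scaling.

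ZRT3 (YKL175W, chromosome XI, 118793 to 120304), the gene of the vacuolar exporter, had another order of libraries. The 3 libraries of Minus_Rps26 held 70.0, 104 and 91.2 CPM and those of Plus_Rps26 67.1, 108 and 73.5 CPM, against 72.5 CPM in Rps3_TAP. Replicate 2 was the highest in both classes, where ZRT1 and ZRT2 were lowest, and r between ZRT1 and ZRT3 was -0.45 over the 6 libraries. The log2 fold changes over Rps3_TAP were 0.29 ± 0.42 in Minus_Rps26 and 0.19 ± 0.42 in Plus_Rps26 (SE), and the value for Plus_Rps26 turned to -0.044 without its replicate 2.

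ZAP1 (YJL056C, chromosome X, 330431 to 333073), the regulator gene, was measured at 39.6, 50.2 and 49.4 CPM in Minus_Rps26 and at 28.5, 33.3 and 28.8 CPM in Plus_Rps26, against 22.9 CPM in Rps3_TAP. All 3 libraries of Minus_Rps26 lay above all 3 of Plus_Rps26, and Rps3_TAP lay below both. The log2 fold changes over Rps3_TAP were 1.02 ± 0.40 in Minus_Rps26 and 0.40 ± 0.38 in Plus_Rps26 (SE). ZAP1 is the longest of the 6 genes at 2643 bases, and once the trend of counts with coding length was taken out of each library, the value for Minus_Rps26 was 0.11.

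ZPS1 (YOL154W, chromosome XV, 34658 to 35407), the shortest of the 6 genes at 750 bases, also had the lowest CPM. The 3 libraries of Minus_Rps26 held 8.53, 11.2 and 10.0 CPM and those of Plus_Rps26 8.93, 14.9 and 12.2 CPM, against 8.47 CPM in Rps3_TAP (84 counts; 95% Wilson interval 6.84 to 10.5 CPM). Rps3_TAP was the lowest library, but that interval takes in Minus_Rps26 replicates 1 and 3 and Plus_Rps26 replicate 1. The log2 fold changes over Rps3_TAP were 0.23 ± 0.51 in Minus_Rps26 and 0.50 ± 0.52 in Plus_Rps26 (SE).

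ADH4 (YGL256W, chromosome VII, 15159 to 16307) was measured at 61.2, 75.4 and 74.9 CPM in Minus_Rps26 and at 60.4, 54.9 and 69.6 CPM in Plus_Rps26, against 46.1 CPM in Rps3_TAP (95% Wilson interval 42.0 to 50.5 CPM). The 6 libraries of the depletion strain were all higher than Rps3_TAP, and those of the 2 classes overlapped. The log2 fold changes over Rps3_TAP were 0.61 ± 0.37 in Minus_Rps26 and 0.42 ± 0.36 in Plus_Rps26 (SE).

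The authors' deposited tables gave smaller values for ZRT1, a log2 fold change of 2.62 ± 0.31 (SE) in Minus_Rps26 and 2.54 ± 0.51 (SE) in Plus_Rps26 over Rps3_TAP. For the other 5 genes they ran from 0.02 for ZRT2 to 0.79 for ZAP1 in Minus_Rps26 and from 0.18 for ZRT3 to 0.51 for ZRT2 in Plus_Rps26. In the authors' deposited normalized values for Minus_Rps26 and Rps3_TAP, the columns named for eluates 1 and 3 were identical in all 5898 rows. Both were proportional, within 1e-06, to the counts of replicate 1 in all 5716 rows compared, and to those of replicate 3 in 0 of 5704. ZRT1 stood at 295 CPM in replicate 3, the highest of its group, and without that library its log2 fold change was 2.74. In the normalized values for Plus_Rps26 and Rps3_TAP, the Plus_Rps26 columns equalled each other in only 179 to 198 of 5898 rows. The authors' ZRT1 value for Plus_Rps26 was nonetheless also smaller, 2.54 against 3.20 here. The cause of the smaller values was not tested.

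**Figure D3:**
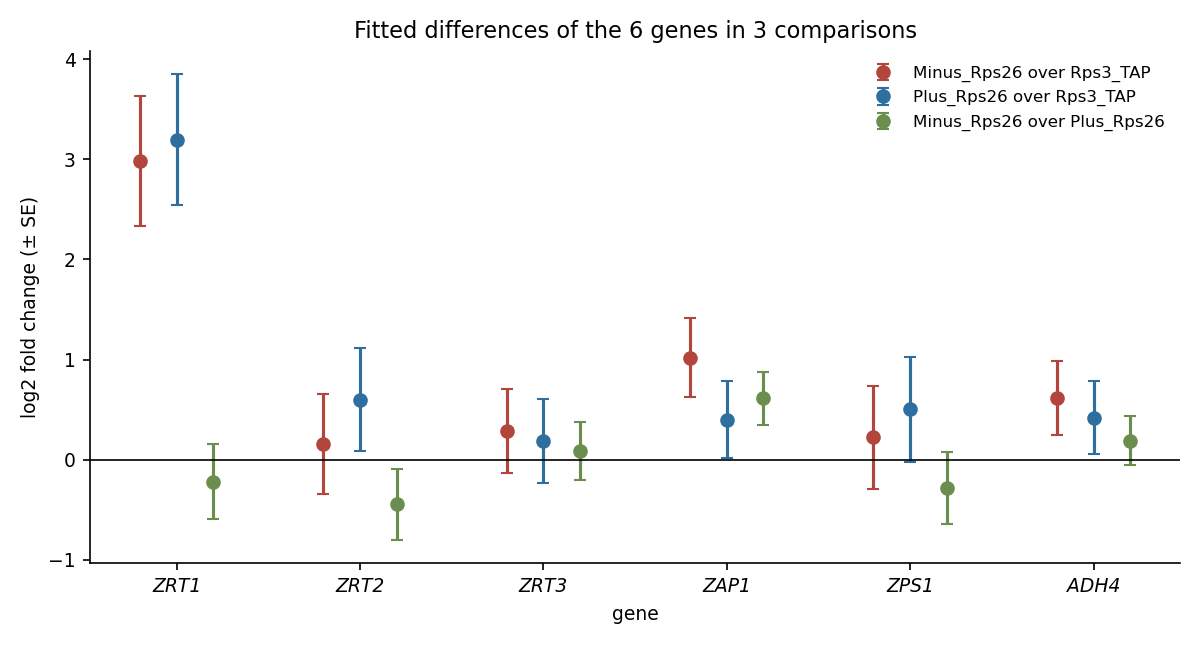
Log2 fold change (points) with its standard error (bars) of the 6 genes in Minus_Rps26 over Rps3_TAP, Plus_Rps26 over Rps3_TAP and Minus_Rps26 over Plus_Rps26. ZRT1 stands at 2.98 and 3.20 over Rps3_TAP and at -0.22 between the 2 ribosome classes of the depletion strain.

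The comparison of Minus_Rps26 with Plus_Rps26 asks whether these messages associate differently with the 2 ribosome classes. By edgeR's quasi-likelihood test, with adjusted p under 0.05 as the threshold, 0 of the 6 genes were called, against 16.0% of 5668 features (8.10% higher and 7.90% lower in Minus_Rps26). DESeq2 and limma-voom called 0 of the 6 as well, where they called 1569 and 822 of all features. With a block for the replicate number, edgeR called 0 of the 6 and 0 of all features. In edgeR 1 gene, ZAP1, had an unadjusted p under 0.05, as did 2121 of the 5668 features. The log2 fold changes of the 6 ran from -0.45 to 0.62 with a median of -0.07, against 0.03 over all features. Of these, 3 were above 0 and 3 below.

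ZAP1 differed most among the 6, by 0.62 ± 0.26 on the log2 scale (SE), and missed the threshold (edgeR adjusted p = 0.114). It was the 1 gene of the 6 with no overlap between the libraries of the classes, Minus_Rps26 being higher, whereas 38.4% of all features had none, 21.0% with Minus_Rps26 higher and 17.3% with it lower. Replicates 1, 2 and 3 gave log2 ratios of 0.48, 0.58 and 0.77 between same-numbered libraries, which the labels do not say share a lysate. The log2 fold change turned to -0.21 once the length trend was taken out. Scaled to total counts only, it was 1.37 (edgeR adjusted p = 0.0363), where the median of all features was 0.75. Over all alternatives its edgeR, DESeq2 or limma-voom adjusted p ran from 0.0363 to 0.635.

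For the 5 other genes no difference beyond their spread was detectable. ZRT1 averaged 243 ± 69.0 CPM on Minus_Rps26 ribosomes, against 283 ± 140.0 CPM on Plus_Rps26 ribosomes (SD of 3 libraries each, scaled over these 6). Its log2 fold change was -0.22 ± 0.37 (SE), with an adjusted p of 0.699 in edgeR. Plus_Rps26 replicate 3 decided its sign, since replicates 1, 2 and 3 stood at 0.020, 0.010 and -0.48 (log2 ratio) and the fold change turned to 0.22 without that library. The fold change of ZRT2 was -0.45 ± 0.35 (SE), with an adjusted p of 0.378 in edgeR, and -0.030 without the same library. Its log2 ratios were -0.044, -0.19 and -0.86. ZPS1 stood at -0.28 ± 0.36, ZRT3 at 0.09 ± 0.29 and ADH4 at 0.19 ± 0.25 (SE). In replicate 1 the log2 ratios of all 5 lay between -0.059 and 0.067, and the median over all features was 0.011. Under scaling to total counts only, ZRT1, ZRT2 and ZPS1 turned positive. The authors' deposited table gave 0.51 ± 0.28 (SE) for ZAP1 and -0.26 ± 0.34 for ZRT1, and the same signs as here for all 6 genes.

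**Figure D4:**
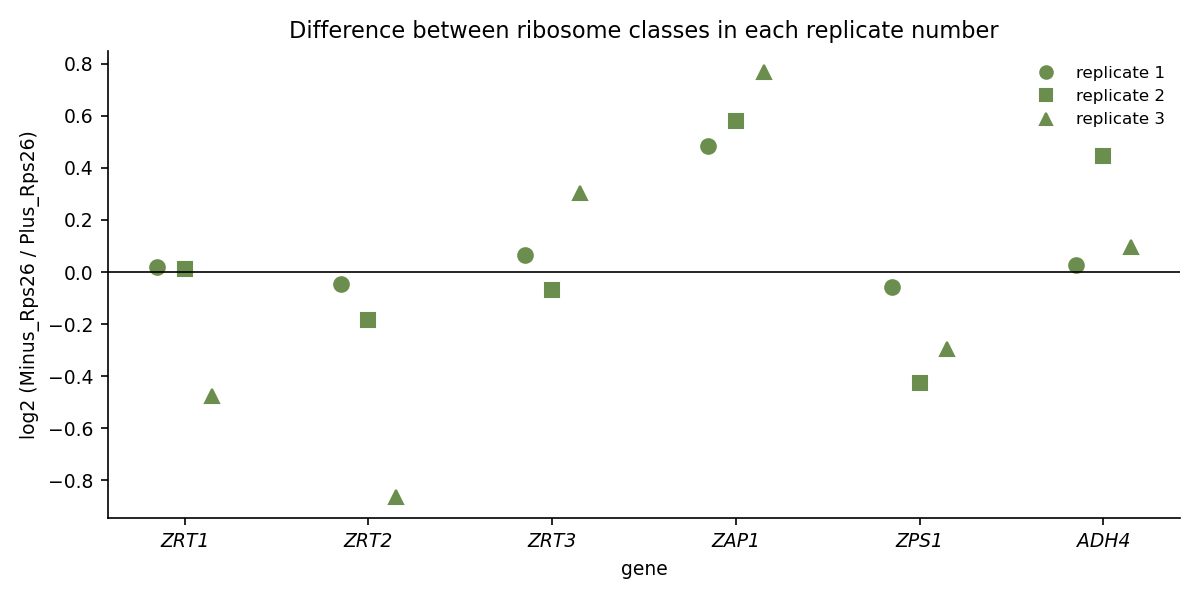
Log2 ratio of Minus_Rps26 over Plus_Rps26 of each of the 6 genes between libraries of the same number, from CPM scaled over 6 libraries, with the replicate number as the shape. ZAP1 is above 0 in all 3 replicates (0.48 to 0.77), and ZRT1 and ZRT2 are lowest in replicate 3, at -0.48 and -0.86.

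Per kilobase of coding length, ZRT1 led the 6 genes in the depletion strain and stood at place 4 in Rps3_TAP. It averaged 199 ± 56.7 CPM per kilobase in Minus_Rps26 and 231 ± 114 in Plus_Rps26 (SD, n = 3 each), against 25.1 in Rps3_TAP. ZRT2 came next in all 6 libraries of the depletion strain, at 108 ± 20.3 CPM per kilobase in Minus_Rps26 and 147 ± 69.4 in Plus_Rps26, against 96.8 in Rps3_TAP, where it led. ADH4 (61.4 ± 7.01 in Minus_Rps26, 53.6 ± 6.46 in Plus_Rps26, 40.1 in Rps3_TAP) and ZRT3 (58.4 ± 11.3, 54.8 ± 14.5 and 47.9 in the same order) changed places between libraries and did not differ beyond their spread. ZAP1 (17.6 ± 2.23, 11.4 ± 1.01 and 8.66) and ZPS1 (13.2 ± 1.77, 16.0 ± 3.98 and 11.3) were lowest, ZAP1 ahead in the 3 libraries of Minus_Rps26 and ZPS1 in the other 4. Among 5611 nuclear protein-coding genes, the level of ZRT1 per kilobase stood at percentiles 81.2 to 93.5 in the depletion strain and 41.7 in Rps3_TAP. ZRT2 stood at 73.9 to 87.7 and 72.6, and ZAP1 at 16.4 to 25.2 and 16.0.

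Other genes that Zap1 activates did not share one direction against Rps3_TAP. Of 21 such genes outside the 6, 6 were 2-fold or more higher and 5 were 2-fold or more lower in Minus_Rps26 than in Rps3_TAP (25.8% and 22.2% of all features), and 3 were higher and 4 lower in Plus_Rps26 (14.2% and 11.6%). Their medians were 0.47 and 0.33. The highest in Minus_Rps26, among those with a mean of 10 CPM or more, were KCS1, an inositol hexakisphosphate kinase gene (1.99 in Minus_Rps26 and 0.67 in Plus_Rps26 over Rps3_TAP, log2), ZRG17, a zinc transporter gene of the secretory pathway (1.38 and 0.60), and EKI1, an ethanolamine kinase gene (1.21 and 0.74). The lowest were TSA1, the gene of an abundant peroxiredoxin (-3.12 and -1.88), URA10, of pyrimidine synthesis (-2.39 and -0.32), and PIS1, of phosphatidylinositol synthesis (-1.60 and -0.41). The 3 genes that were 2-fold or more higher on both classes, named after their values were seen, were VEL1 (2.00 and 2.72), YOR387C (1.72 and 1.93) and MNT2, a mannosyltransferase gene (1.13 and 1.17). VEL1 and YOR387C rest on few reads, 0.50 and 0.30 CPM in Rps3_TAP, and as similar paralogs they may share reads. Also chosen after their values were seen, the other genes at 2-fold or more lower were GPG1 (-3.01 and -2.41) and NRG2 (-1.57 and -1.30), with CKI1 at -1.12 in Plus_Rps26.

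**Figure D5:**
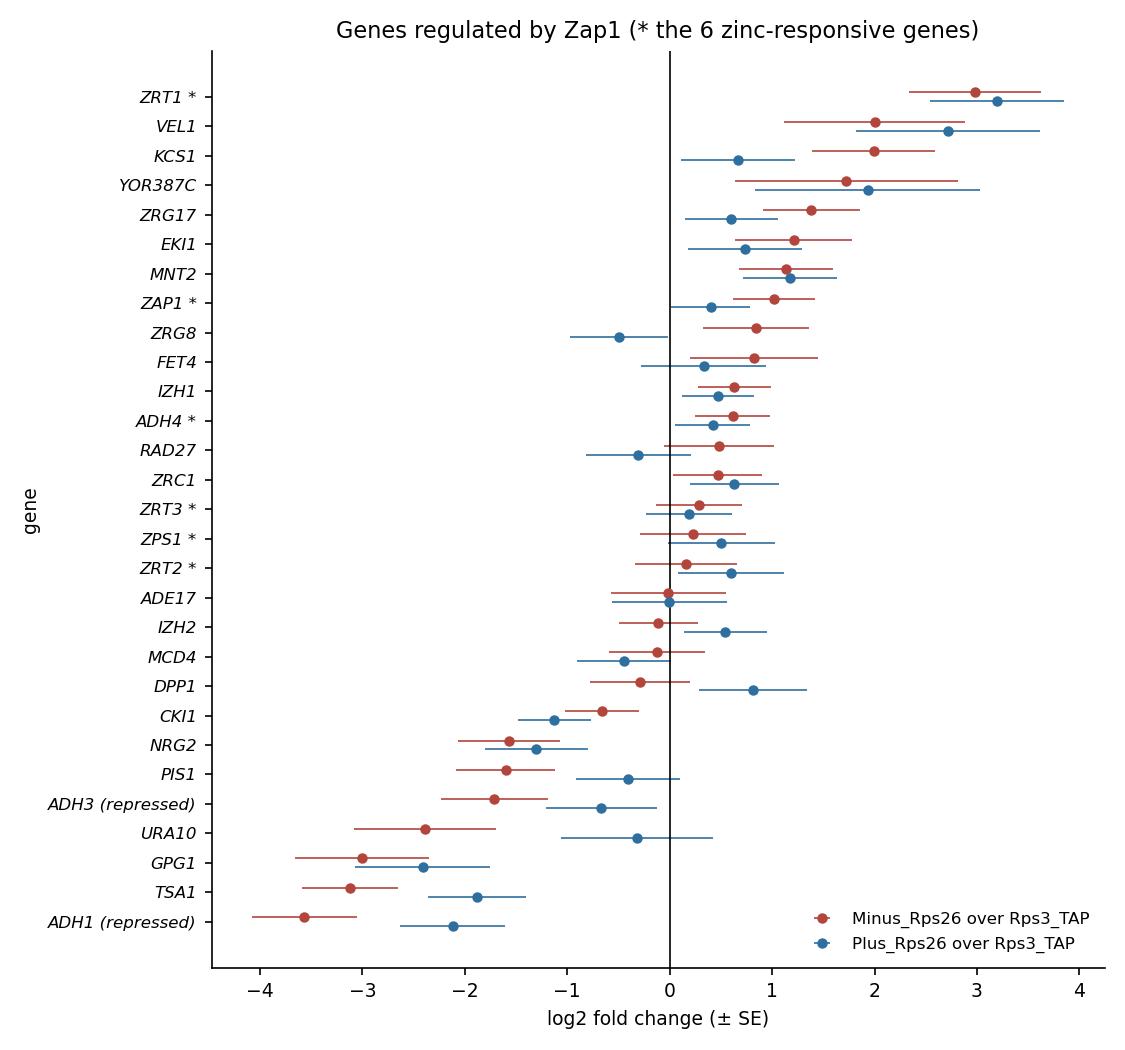
Log2 fold change (points) with its standard error (bars) over Rps3_TAP, in Minus_Rps26 and Plus_Rps26, of the 6 zinc-responsive genes (starred), other genes that Zap1 activates and 2 that it represses. ZRT1 has the highest values (2.98 and 3.20) and ADH1 the lowest in Minus_Rps26 (-3.57), with activated genes such as TSA1 (-3.12) also far below 0.

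ADH1, which Zap1 represses, was lower in all 6 libraries of the depletion strain than in Rps3_TAP, with log2 fold changes of -3.57 ± 0.51 in Minus_Rps26 and -2.12 ± 0.51 in Plus_Rps26 (SE). ADH3, which it also represses, stood at -1.71 ± 0.52 in Minus_Rps26 and -0.67 ± 0.54 in Plus_Rps26 (SE), and Plus_Rps26 replicate 3 (859 CPM) lay above Rps3_TAP (828 CPM). Set against ADH1 within a library, there were 40.2, 71.6 and 48.8 counts of ADH4 per 1000 counts of ADH1 in Minus_Rps26 and 26.3, 16.5 and 12.4 in Plus_Rps26, against 2.84 in Rps3_TAP. Since ADH4 itself stood at only 0.61 and 0.42 over Rps3_TAP, these ratios mostly restate the lower ADH1 and are not a separate result. Of 7 alcohol dehydrogenase genes other than ADH4, these 2 included, 5 were 2-fold or more lower and 1 higher in Minus_Rps26 than in Rps3_TAP (22.2% and 25.8% of all features), and 2 were lower and 1 higher in Plus_Rps26 (11.6% and 14.2%). Rps3_TAP lay above all 6 other libraries in 5 of the 7, as for 25.1% of all features. ADH5 stood at -2.95 in Minus_Rps26 and -1.60 in Plus_Rps26, ADH6 at -1.09 and -0.36, SFA1 at -0.42 and -0.29, and ADH7, named after its value was seen, at -1.26 and -0.23. The 1 that was higher was ADH2, the glucose-repressed isozyme, at 1.62 ± 0.85 and 3.41 ± 0.94 (SE), with 2.62 CPM in Rps3_TAP. As similar paralogs, ADH1 and ADH2 may share some reads.

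Of 5 genes of zinc transport or zinc homeostasis outside the Zap1 lists, 0 were 2-fold or more higher (25.8% of all features in Minus_Rps26 and 14.2% in Plus_Rps26). In each class 1 was lower (22.2% and 11.6%), IZH4 (log2 fold change over Rps3_TAP -1.38 in Minus_Rps26 and -1.27 in Plus_Rps26). The others ran from 0.01 for YKE4 to 0.93 for MSC2 in Minus_Rps26, with COT1, which moves zinc and cobalt into the vacuole, at 0.18 and IZH3 at 0.45. Among 16 genes of the Aft1 iron regulon, 4 were 2-fold or more higher and 3 lower in Minus_Rps26, where 25.8% and 22.2% of all features were, and 7 were higher and 4 lower in Plus_Rps26, where 14.2% and 11.6% were. Among those with a mean of 10 CPM or more, FRE2 (2.79 and 1.88), FRE3 (1.73 and 1.62) and the ferroxidase gene FET3 (1.32 and 1.17) stood highest in Minus_Rps26, and FIT2 (-2.71 and -2.11), TIS11 (-2.31 and -2.00) and MRS4 (-1.81 and -1.23) lowest. The others past 2-fold, named after their values were seen, were FIT1 (2.04 and 1.35), and in Plus_Rps26 alone FTR1 (1.33), ARN1 (1.12), ARN2 (1.11) and FIT3 (-1.46). Of 9 copper genes 7 passed the filter, and 2 were 2-fold or more higher in each class (25.8% and 14.2% of all features), FRE1 (1.95 ± 0.89 and 1.27 ± 0.85, SE) and FRE7 (1.76 ± 1.59 and 1.90 ± 1.61, SE). The values of FRE7 rest on replicate 3, with 6.80, 1.79 and 32.3 CPM in Minus_Rps26 and 4.42, 4.47 and 36.5 CPM in Plus_Rps26, against 4.03 CPM in Rps3_TAP, which lay within their range. CTR3, also named after its value was seen, was 2-fold or more lower in Minus_Rps26 (-1.82), as 22.2% of features were.

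Between Minus_Rps26 and Plus_Rps26, 8 of the 56 listed genes tested outside the 6 were called in edgeR, which is 14.3%, near the 16.0% of all features. In Minus_Rps26, 2 rose, KCS1 (log2 fold change 1.32 ± 0.38) and ZRG8 (1.34 ± 0.35, SE). The 6 that fell were TSA1 (-1.24 ± 0.37), URA10 (-2.07 ± 0.56), ADH1 (-1.45 ± 0.40), ADH2 (-1.79 ± 0.53), ADH5 (-1.35 ± 0.41) and the copper regulator gene CUP2 (-1.18 ± 0.35, SE), with edgeR adjusted p from 0.0365 to 0.0482 over the 8. None of the 8 was called with the coding length trend removed or with the replicate block, where 0 of all features were. None was called with any 1 library other than Plus_Rps26 replicate 1 left out, where 0 to 214 of all features were. Without Plus_Rps26 replicate 1, 18 of the listed genes and 2495 of all features were called.

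The genes whose levels over the 7 libraries were most like the mean standardised pattern of the 6, by Pearson's r of log2 CPM, were KRE6, TPO5, QDR3, VBA4, KAP122, YEL1, SLY41, NDC1, KTR6 and MCM3, with r from 0.99 for KRE6 to 0.97 for MCM3. Of these 10, 2 (TPO5 and MCM3) were also among the 10 most alike over the 6 libraries of the depletion strain. For ZRT1 alone the nearest genes over 7 libraries were RCM1, YHR045W and MET1 (0.98 each), and over the 6 libraries PLB1, HIS4 and MNT2 (0.98 to 0.99). ADE4, RER2 and SFK1 were nearest to ZRT2 and NTA1, ALG12 and YOL107W to ZRT3. TTI1, SPO71 and SLH1 were nearest to ZAP1, REX3, CDC42 and GLE2 to ZPS1, and RXT2 and ENT4 were among the nearest to ADH4. None of the 6 genes was among the 3 nearest of another, and their pairwise r over 7 libraries ran from -0.43 for ZRT2 and ZRT3 to 0.80 for ZRT1 and ADH4.

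No annotated gene overlapped any of the 6. FZF1, which starts 195 bases beyond the end of ZRT1 on its other side from ADH4, stood at log2 fold changes over Rps3_TAP of 0.52 ± 0.47 in Minus_Rps26 and 0.28 ± 0.47 in Plus_Rps26 (SE), well below those of ZRT1. MNT2 lies 1001 bases from ADH4 and TPO5 75 bases from ZRT3. TPO5, a polyamine transporter gene, stood at 1.77 ± 0.53 in Minus_Rps26 and 1.70 ± 0.53 in Plus_Rps26 over Rps3_TAP (SE), above ZRT3 beside it.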

How the data were processed

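The authors deposited raw counts per feature for 7 libraries, per the labels. Alignment was to sacCer3 with TopHat2 2.0.9, and DESeq and DESeq2 are named too, per the submitters' processing notes. How features were counted, and on which strand, is not given in the sources used here. Log2 fold changes with p-values are in the authors' comparison tables, per the file headers. The deposited normalized sheets, a signal scaled per column, served only to compare columns. Alignments that were not unique are listed as 0 in replicate 3 of both groups and as 11530659 to 18980582 elsewhere.

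Counts were tested with edgeR 4.0.16 in R 4.3.3 (trimmed-mean scaling, default filter, quasi-likelihood test, Benjamini-Hochberg adjustment over all features), after a check on simulated counts. Minus_Rps26 and Plus_Rps26 were fitted alone, and Rps3_TAP comparisons over 7 libraries. SE is the log2 fold change over the root of F. Correlations used log2 CPM with a prior count of 2. Coordinates are RefSeq's for R64. The description of Plus_Rps26 replicate 2 repeats the flowthrough number of replicate 1, and its title was used. Replicates differed beyond sampling noise.

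Members and lists were chosen with earlier results of these data known. The rule named the 6 members, listed genes called between classes, the 3 highest and 3 lowest per list in Minus_Rps26 over Rps3_TAP with a mean of at least 10 CPM, and the nearest genes by r. Some of the nearest genes are not reported here. Promoter sequences were not used here.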

Additional observations from a re-analysis of the deposited data

How the results depend on the processing

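ZRT1 stayed between log2 fold changes of 2.74 and 4.20 in Minus_Rps26 and between 2.72 and 3.58 in Plus_Rps26 over Rps3_TAP under the 10 alternatives run for each. The number of the 6 genes 2-fold or more higher in Minus_Rps26 than in Rps3_TAP was 2; it was 1 with RLE scaling, with DESeq2, with the coding length trend removed or with only the groups compared, 1 to 2 with each library left out, and 6 with total counts alone. With total counts alone the median log2 fold change of all features was itself 1.39, past 2-fold, so the 6 did not stand out by that count. In the main fit 25.8% of all features were 2-fold or more higher. Leaving out Rps3_TAP leaves no comparison with it.

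Between Minus_Rps26 and Plus_Rps26, 0 of the 6 were called in edgeR, and the 1 exception among the alternatives was ZAP1 with total counts alone. The labels do not say that a replicate number marks a shared lysate. Plus_Rps26 ribosomes are those the beads left behind, so libraries of the same number may share one. Deviations of same-numbered libraries correlated at -0.20, 0.41 and 0.01, and 2 of 6 libraries correlated best with their own number. With 3 libraries per class these correlations cannot decide the pairing, so results are given with and without a replicate block. With the replicate block ZRT1 stood at -0.15 and ZAP1 at 0.61, and the block changed no call among the 6. The 8 calls among listed genes became 5 with total counts alone, 0 with the length trend removed, 0 with the replicate block, 0 with both, and 0 to 18 with each library left out. Among all features 907 were called in edgeR, 1569 in DESeq2, 0 with the block or the trend removed, and 0 to 2495 with each library left out (2495 without Plus_Rps26 replicate 1). With total counts alone 1042 were higher and 37 lower, against 459 and 448.

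Signs turned with total counts alone for ZRT1 (0.62), ZRT2 (0.39) and ZPS1 (0.53). They turned with the length trend removed for ZRT3 (-0.079), ZAP1 (-0.21) and ZPS1 (0.18), and with the block as well (-0.057, -0.21 and 0.17). With each library left out, ZRT1 ran from -0.46 to 0.22 and ZRT3 from -0.10 to 0.33. Over Rps3_TAP, ZRT3 turned to -3.6e-05 in Minus_Rps26 with the trend removed, and ran from -0.044 to 0.33 in Plus_Rps26 with each library left out. The cause of these turns was not tested. The 10 genes most alike in pattern shared 2 with those over 6 libraries. The planned motif search in promoters was not run. The single Rps3_TAP library, and 84 counts of ZPS1 in it, limit these values.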
